A study of Danio rerio with 6 samples.

Results

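The retinoid-binding protein genes of zebrafish were followed in 6 RNA sequencing libraries labelled as liver. They were chosen by gene symbol as rbp4, rbp2a, rbp2b, rbp5, rbp7a, rbp7b, crabp1a, crabp1b, crabp2a and crabp2b, which makes 10 of the 36191 gene IDs measured. All 10 were among the 19313 genes that passed a filter on low values, a mean of at least 1 FPKM over the libraries. The libraries came from 3-month-old wild-type fish of the AB strain, a common laboratory strain. There were 3 from fish given graphene oxide nanoparticles (GO), a sheet-like carbon nanomaterial, and 3 from control fish (CK), numbered 1 to 3 in each group. No dose or exposure time was used here, and nothing in the labels says whether a library is 1 fish, a pool or a repeat, so a p-value here speaks only of how much these libraries vary, which may be technical.

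Vitamin A (retinol) and its derivative retinoic acid are poorly soluble in water and travel bound to small proteins. The protein made from rbp4 carries retinol in blood and in vertebrates is secreted above all by hepatocytes. The cellular retinol-binding proteins (here rbp2a, rbp2b, rbp5, rbp7a and rbp7b) hold retinol and retinal inside cells, with the type encoded by rbp2 known from the absorptive cells of the intestine. The cellular retinoic acid-binding proteins (crabp1a, crabp1b, crabp2a and crabp2b) hold retinoic acid on its way to the nucleus or to breakdown. The genes ending in a and b are paralogs left by duplication in the fish lineage.

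The libraries did not look alike in their tissue markers, and the replicate 3 library was the odd one in either group. A list of 20 hepatocyte markers summed to 182 and 175 CPM (counts per 1000000 counts of a library) in GO replicates 1 and 2 and to 11002 CPM in GO replicate 3. In control it summed to 629 and 611 CPM in replicates 1 and 2 and to 9992 CPM in replicate 3. The hepatocyte markers hpx, ahsg2 and ttr had 0 counts in at least 1 library of replicates 1 and 2. A list of 15 intestine markers summed to 171, 169 and 4940 CPM in the 3 GO libraries, against 447, 446 and 4617 CPM in the 3 control libraries, and its member chia.3 had 0 counts in all 4 libraries of replicates 1 and 2. The apolipoprotein gene apoa1a made up the largest part of this sum. It had 126, 127 and 2307 CPM in GO, against 314, 313 and 2346 CPM in control (scaled as the single genes below). A list of 18 muscle markers summed to 72820 to 105720 CPM, above the hepatocyte list in every library. Total counts were 9739760 to 12998273 per library. Results are given for replicates 1 and 2 alone and for all 6 libraries.

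Per length, rbp4 was the most abundant of the 10 transcripts in every library. It stood at 755, 731 and 2166 TPM (transcripts per 1000000, a level corrected for length) in GO replicates 1, 2 and 3, against 905, 882 and 1789 TPM in control. That placed it between rank 101 and rank 204 of all genes. Next in GO replicates 1 and 2 came rbp5 at 57.2 and 55.0 TPM and crabp1a at 50.1 and 58.2 TPM, whose ranges overlapped. In control replicates 1 and 2, crabp1a stood at 65.3 and 64.6 TPM, above rbp2a at 52.9 and 58.5 TPM and rbp5 at 53.2 and 56.6 TPM, which overlapped each other. In the replicate 3 libraries the order changed, with rbp2a at 365 TPM in GO and 547 TPM in control, and rbp2b at 246 TPM in GO and 241 TPM in control. The other 7 genes lay between 8.64 and 35.5 TPM there. The lowest levels of the whole set were those of rbp7a in GO replicates 1 and 2, at 4.93 and 3.48 TPM.

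**Figure D1:**
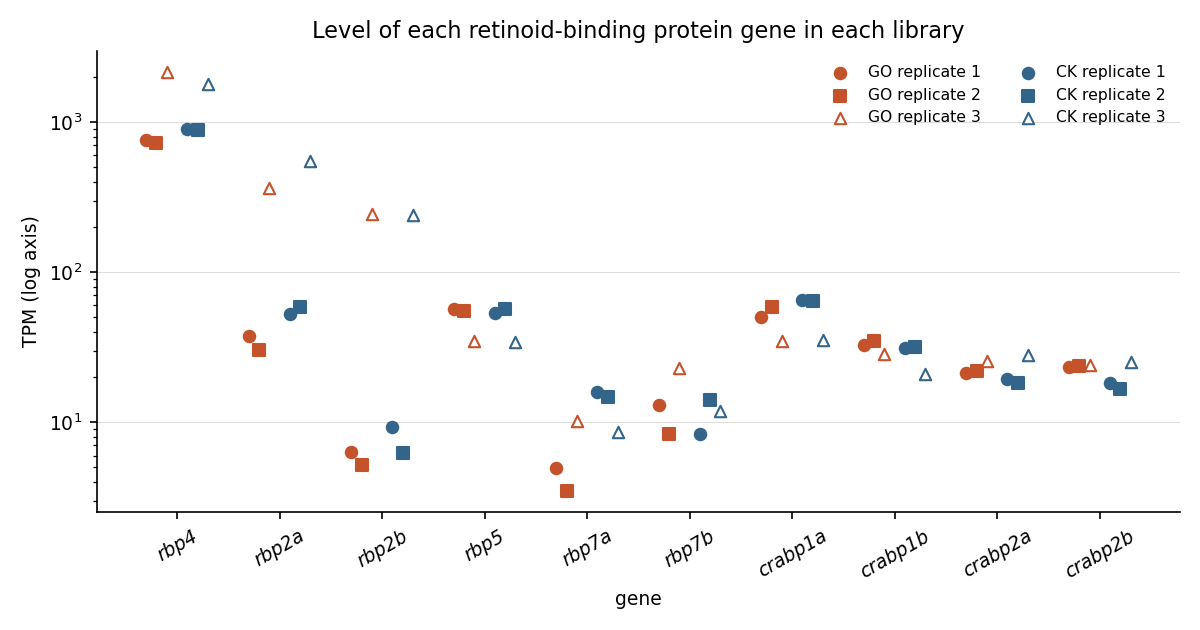
TPM of each retinoid-binding protein gene on a log axis, with GO libraries left of CK libraries; circles are replicate 1, squares replicate 2 and open triangles replicate 3. The replicate 3 triangles of rbp2a and rbp2b lie at 241 to 547 TPM, far above replicates 1 and 2 of the same gene, while rbp4 is the highest gene in every library.

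The retinol carrier gene rbp4 (gene ID 30077) differed in opposite directions in the 2 kinds of library. It had 344, 334 and 1035 CPM in GO replicates 1, 2 and 3, against 479, 468 and 865 CPM in control (CPM of single genes here and below are scaled by TMM, a correction for library composition). Both GO libraries of replicates 1 and 2 were below both control libraries, and in replicate 3 the GO library was the higher one. In replicates 1 and 2 rbp4 fell to 339 ± 7.61 CPM with GO, against 473 ± 7.43 CPM in control (SD, n = 2 each). The log2 fold change was -0.48 ± 0.03 (SE, adjusted p = 1.64e-42, edgeR's quasi-likelihood test with Benjamini-Hochberg adjustment over all genes). The log2 difference in the replicate 3 pair was 0.26. The difference between the effects, replicate 3 minus replicates 1 and 2, was 0.74 ± 0.04 (SE, adjusted p = 2.17e-36, edgeR interaction term), where the spread came from replicates 1 and 2 because replicate 3 has 1 library a group.

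The range of rbp4 over the 6 libraries was narrower than that of the summed hepatocyte markers. Replicate 3 had 3.05 times the rbp4 CPM of the mean of replicates 1 and 2 in GO and 1.83 times in control. The gene fabp10a, for the fatty acid-binding protein of liver, had 119 CPM in GO replicate 3, against 1.1 and 1.02 CPM in GO replicates 1 and 2. In control it had 117 CPM in replicate 3, against 1.58 and 1.26 CPM in replicates 1 and 2. Other hepatocyte markers were higher there, such as the apolipoprotein gene apoa2, at 45.0 and 41.5 CPM in GO replicates 1 and 2 against 197 and 195 CPM in control. In the replicate 3 pair the hepatocyte markers differed in both directions, with a log2 difference of 0.46 for apobb.1 and 0.79 for c3a.1 and of -0.45 for tfa and -0.27 for apoa2. The blood partner of this carrier, transthyretin (ttr), had 0.184, 0.471 and 25.4 CPM in the 3 GO libraries, against 0, 0.237 and 18.3 CPM in control. Within replicates 1 and 2, 14 of 17 tested hepatocyte markers fell with GO and 0 rose, where 12.0% of all tested genes fell and 12.9% rose. Markers of other tissues fell there too, 16 of 18 for muscle, 10 of 13 for epidermis and 8 of 13 for neural tissue. In these lists 1, 3 and 0 rose. Their median log2 fold changes were -0.21, -0.21 and -0.15, against -1.67 for hepatocyte and -1.29 for intestine markers. The 14 tested exocrine pancreas markers, which summed to 9.48 to 12.8 CPM there, had 0 calls. The part of hepatocyte transcripts in the fall of rbp4 was not tested. In such bulk samples fewer cells of a type and less RNA per cell cannot be told apart.

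**Figure D2:**
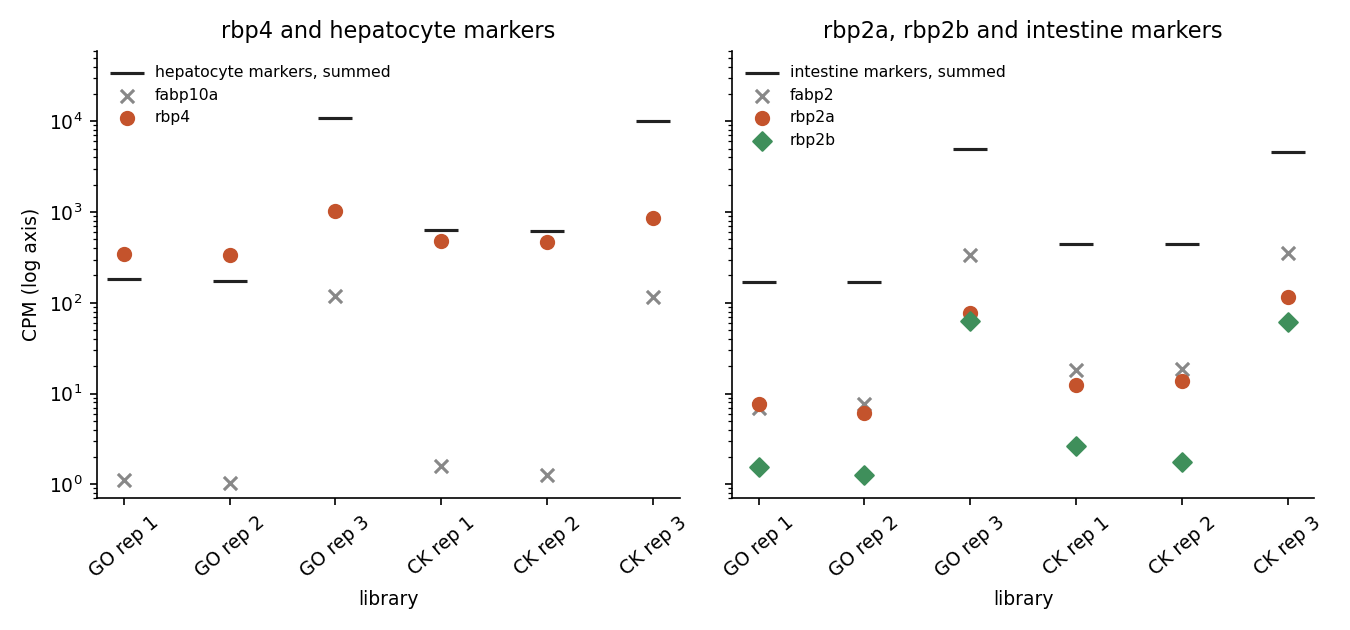
CPM on a log axis in each library, GO libraries left of CK libraries. The left panel shows rbp4, fabp10a and the sum of 20 hepatocyte markers, and the right panel rbp2a, rbp2b, fabp2 and the sum of 15 intestine markers. The rbp4 points span 334 to 1035 CPM while the hepatocyte sum spans 175 to 11002 CPM, and rbp2a and rbp2b are highest in both replicate 3 libraries. Sums are not TMM-scaled, and apoa1a is the largest part of the intestine sum.

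The 2 intestinal-type retinol-binding protein genes, rbp2a and rbp2b, showed the widest range of the set. For rbp2a (568032) the values were 7.73, 6.13 and 77.4 CPM in GO replicates 1, 2 and 3, against 12.5, 13.6 and 115 CPM in control. GO was the lower library in each of the 3 pairs, with log2 differences of -0.68, -1.13 and -0.57. Among replicates 1 and 2 it fell, with a log2 fold change of -0.93 ± 0.17 (SE, adjusted p = 1.08e-06, edgeR). The effect in replicate 3 did not pass the test for a difference from that in replicates 1 and 2 (difference 0.36 ± 0.18 SE, adjusted p = 0.192, edgeR interaction term).

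Its paralog rbp2b (432384) had 1.56, 1.26 and 62.6 CPM in the GO libraries, against 2.64, 1.74 and 61.1 CPM in control. Its values in replicates 1 and 2 rest on 16 to 25 counts a library, and the log2 fold change of -0.61 ± 0.40 (SE, adjusted p = 0.284, edgeR) did not pass. In the replicate 3 pair rbp2b differed by 0.04 on the log2 scale, where rbp2a differed by -0.57. Per length, rbp2a exceeded rbp2b 1.48-fold in GO replicate 3, against 2.27-fold in control replicate 3. For replicates 1 and 2 the ratio was 5.91 and 5.85 in GO, against 5.65 and 9.4 in control.

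Beside them, the intestinal fatty acid-binding protein gene fabp2 had 6.99, 7.62 and 339 CPM in the GO libraries, against 18.4, 18.7 and 351 CPM in control. Of 14 tested intestine markers 9 fell with GO in replicates 1 and 2 and 0 rose, where 12.0% of all tested genes fell and 12.9% rose. Most markers of muscle, epidermis and neural tissue fell as well, as given above. The part of intestine transcripts in the values of rbp2a and rbp2b was not tested.

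The rbp2a gene stood on 2 rows of each table, and the libraries filled them differently. In GO replicates 1 and 2 the first row held 11.99 and 16.13 counts and the second 72.01 and 61.87 counts. In control replicates 1 and 2 the first held 11.51 and 43.0 counts and the second 106.49 and 129 counts. In replicate 3 the first row held all 848 counts in GO and all 1358 in control, and the second held 0 in both. The files do not say what sets the rows of a gene apart, and the values above are their sums. The lower sums of rbp2a with GO came mostly from the second row in replicate 1. They came from both rows in replicate 2 and from the first row in replicate 3. The shared direction of rbp2a over the 3 pairs, and its test for a difference between effects, thus join unlike rows. For rbp2b and rbp7b, also on 2 rows, both rows held the same count in every library.

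Replicate 3 exceeded replicates 1 and 2 by more than 2-fold in both groups for 2 of the 10 genes on the CPM scale, rbp2a and rbp2b. On deposited TPM + 1 it did so for 3 of the 10, with rbp4 as well. On that scale 1740 of all 19313 tested genes passed 2-fold in both groups, in either direction, against 2373 on the CPM scale. In control rbp4 was only just past this line, at 1789 TPM in replicate 3 against 905 and 882 TPM in replicates 1 and 2. The ratio of CPM was 11.2 in GO and 8.83 in control for rbp2a, and 44.4 in GO and 27.9 in control for rbp2b. On the CPM scale 10.1% of all tested genes were higher by this rule and 2.15% lower, and no retinoid-binding protein gene was lower in both groups. Since replicate 3 was known to stand apart and has 1 library a group, these are values without a test. The genes rbp5 and crabp1a lay below replicates 1 and 2 in both groups, with log2 differences of -0.61 in GO and -0.79 in control for rbp5 and of -0.56 in GO and -0.99 in control for crabp1a. For crabp1b they were -0.18 in GO and -0.72 in control, and for crabp2b -0.23 in GO and -0.16 in control. For crabp2a they were 0.32 in GO and 0.46 in control. The summed neural markers were also lower in replicate 3, at 2407 CPM in GO replicate 3 against 4037 and 4108 CPM in GO replicates 1 and 2. In control they stood at 2543 CPM in replicate 3 against 4387 and 4363 CPM in replicates 1 and 2. Muscle markers were lower as well, at 74861 CPM in GO replicate 3 against 96066 and 96139 CPM in GO replicates 1 and 2. In control muscle markers stood at 72820 CPM against 105017 and 105720 CPM. Sums of retina and pigment epithelium markers were also lower in replicate 3 of both groups. The summed epidermis markers stood at 16635 CPM in GO replicate 3 against 23139 and 23218 CPM in GO replicates 1 and 2. In control they were nearly level, at 25253 CPM in replicate 3 against 25780 and 25530 CPM in replicates 1 and 2. The part of any marker list in the values of these genes was not tested.

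**Figure D3:**
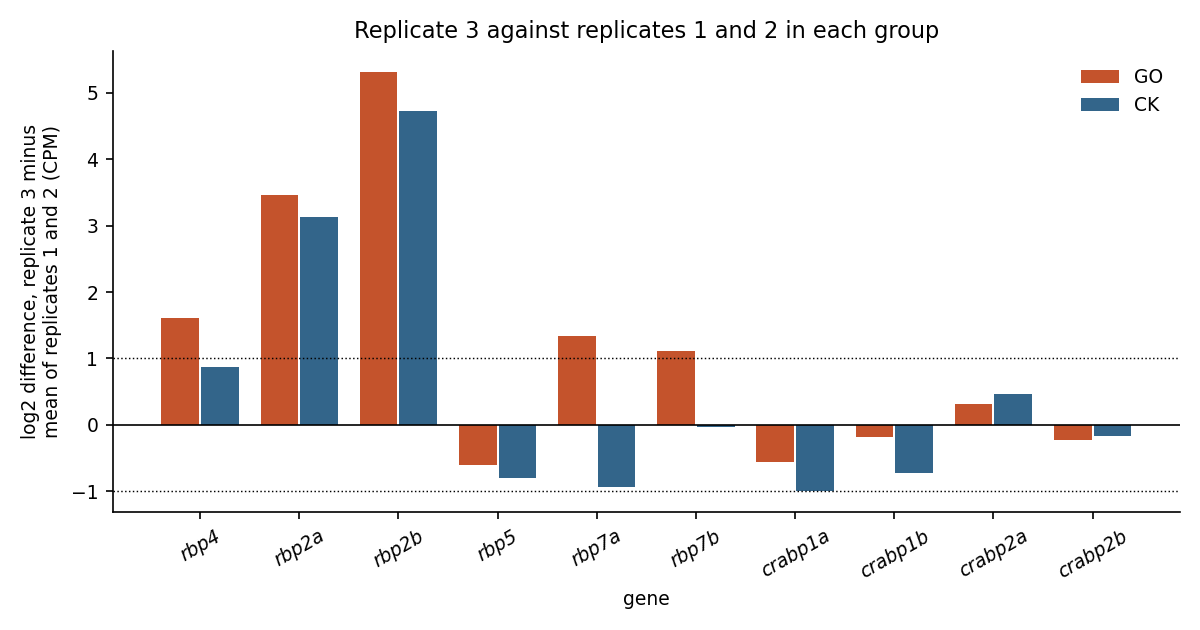
Log2 difference of CPM between replicate 3 and the mean of replicates 1 and 2 for each gene, GO bars left of CK bars, with dotted lines at a 2-fold difference. Only rbp2a and rbp2b pass the upper line in both groups, while rbp7a lies at 1.33 in GO and at -0.93 in control.

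Of the 10 genes, the largest difference between GO and control in replicates 1 and 2 was that of rbp7a (108004542), a cellular retinol-binding protein gene whose mammalian counterpart is known from adipose tissue. It had 3.04, 2.12 and 6.66 CPM in GO replicates 1, 2 and 3, against 11.4, 10.5 and 5.68 CPM in control. Both GO libraries among replicates 1 and 2 were the lowest of the 6, both control libraries the highest, and the replicate 3 libraries lay between them. It fell in replicates 1 and 2, by 2.09 on the log2 scale (± 0.22 SE, adjusted p = 2.03e-17, edgeR), on 33.0 and 27.4 counts with GO against 108 and 133 counts in control. In the replicate 3 pair its log2 difference was 0.23, and the difference between the effects was 2.33 ± 0.38 (SE, adjusted p = 1.76e-07, edgeR interaction term). Its counts in GO replicates 2 and 3 were not whole numbers (27.4 and 72.77), as estimated counts can be where reads match several genes. Which reads these were was not tested, and its values are uncertain to that extent.

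Neither rbp7b nor rbp5 passed the test in replicates 1 and 2. The paralog rbp7b (569308) rested on 14 to 40 counts a library, with 2.02, 1.26 and 3.65 CPM in GO against 1.48, 2.45 and 1.86 CPM in control, and its groups overlapped. The cellular retinol-binding protein gene rbp5 (171477) had 47.0, 45.3 and 30.2 CPM in GO, against 50.6, 54.2 and 30.2 CPM in control. Its log2 fold change in replicates 1 and 2 was -0.19 ± 0.08 (SE, adjusted p = 0.0527, edgeR), close to the threshold of 0.05. Without 1 library it ran from -0.23 to -0.13. It crossed the threshold without control replicate 1, at -0.23, in a fit that leaves 1 control library. Other methods were further from the threshold, with adjusted p = 0.375 by DESeq2 and 0.185 by limma on log2(FPKM + 1).

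Of the 4 retinoic acid-binding protein genes, crabp1a fell and crabp2b rose in replicates 1 and 2. For crabp1a (171479) the values were 18.4, 21.3 and 13.3 CPM in GO replicates 1, 2 and 3, against 27.7, 27.3 and 13.7 CPM in control. The GO libraries were clearly lower among replicates 1 and 2, while the replicate 3 libraries were nearly level. The log2 fold change was -0.46 ± 0.11 (SE, adjusted p = 0.000384, edgeR) in replicates 1 and 2, and the replicate 3 pair differed by -0.04. The difference between these effects did not pass (0.42 ± 0.23 SE, adjusted p = 0.234, edgeR interaction term).

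For crabp2b (503502) the values were 41.6, 39.1 and 34.3 CPM in GO, against 33.6, 34.9 and 30.7 CPM in control. On the CPM scale GO was the higher library in each of the 3 pairs, by 0.31, 0.16 and 0.16 (log2). On the TPM scale GO was higher in replicates 1 and 2 but lower in replicate 3, at 24.2 TPM against 25.3 TPM in control. The log2 fold change in replicates 1 and 2 was 0.23 ± 0.09 (SE, adjusted p = 0.0355, edgeR). This call was lost without any 1 of the 4 libraries (adjusted p = 0.074 without control replicate 2 to 0.248 without GO replicate 1, edgeR) and with DESeq2 (adjusted p = 0.293).

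Their paralogs crabp1b and crabp2a did not pass in replicates 1 and 2. For crabp1b (415102) the values were 16.9, 17.9 and 15.3 CPM in GO, against 18.8, 19.0 and 11.4 CPM in control, a log2 fold change of -0.12 ± 0.13 (SE, adjusted p = 0.544, edgeR). For crabp2a (171480) they were 39.5, 41.2 and 50.2 CPM in GO, against 42.0, 39.6 and 56.3 CPM in control, with -0.01 ± 0.08 (SE, adjusted p = 0.944, edgeR). The TPM ratio of crabp1a to crabp1b was 1.53, 1.68 and 1.23 in the GO libraries, against 2.08, 2.03 and 1.71 in control, so crabp1a exceeded its paralog in every library and by less in the GO library of each pair. The length implied by the deposited counts and FPKM of crabp2b ran from 1330 bases in control replicate 3 to 2140 bases, a 1.6-fold range where the median gene row had 1.01-fold. TPM divides by this length and CPM does not, so a shift of length between libraries can make the 2 scales differ for crabp2b. Other members also differed between the scales, though their implied lengths stayed within 1.03-fold. In replicates 1 and 2 crabp2a had a mean of 21.6 TPM with GO against 18.8 TPM in control. For crabp1b the means were 33.7 and 31.6 TPM, and for rbp5 56.1 and 54.9 TPM. All of these genes had a lower mean CPM with GO. The fall of rbp4 was smaller in TPM, at 743 TPM against 893 TPM. Why the scales differ there was not tested, nor which is nearer to the transcript levels.

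**Figure D4:**
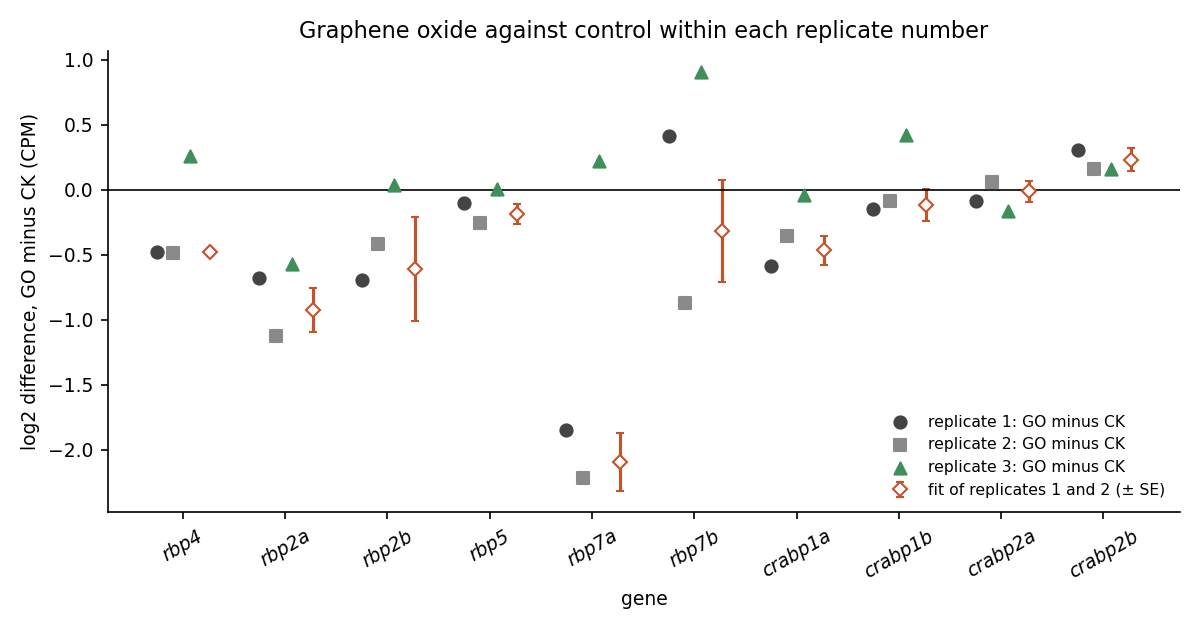
Log2 difference of CPM, GO minus CK, within each replicate number (circles, squares and triangles for replicates 1, 2 and 3) and the edgeR log2 fold change of replicates 1 and 2 with its SE (open diamonds). The circles and squares of rbp7a lie at -1.85 and -2.22 and its triangle at 0.23; rbp2a and crabp1a lie below 0 and crabp2b above 0 in all 3 pairs.

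Counted together, 4 of the 10 genes fell with GO in replicates 1 and 2 (rbp4, rbp2a, rbp7a and crabp1a) and 1 rose (crabp2b). Of all 19313 tested genes 12.0% fell and 12.9% rose in that comparison. The median log2 fold change was -0.39 over the 10 genes and -0.002 over all tested genes. With so small a spread between replicates 1 and 2 (common dispersion 0.000716, against 0.166 over 6 libraries), small differences passed, and these libraries may be technical repeats. The test of the difference between effects was passed by rbp4 and rbp7a. For both, the GO minus control difference was higher in replicate 3. Of all tested genes 6.63% passed in that direction and 7.59% in the other.

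Over all 6 libraries none of the 10 genes passed, and 0.0% of all genes did. edgeR's quasi-likelihood test gave 0 calls, with adjusted p = 0.99988 for the member with the smallest, and 0 of the 10 had an unadjusted p under 0.05. Among all genes 438 (2.27%) had an unadjusted p under 0.05, and DESeq2 called 10 genes, none of them in this family. With GO rbp4 averaged 571 ± 402 CPM and in control 604 ± 226 CPM (SD, n = 3 each), and rbp2a averaged 30.4 ± 40.7 CPM with GO and 47.0 ± 58.9 CPM in control. For rbp4 and rbp2a the spread within each group came mostly from replicate 3 and exceeded the difference between groups. The largest fold change was that of rbp7a, -1.22 ± 0.50 (log2, SE), at 3.94 ± 2.40 CPM with GO and 9.20 ± 3.08 CPM in control (SD, n = 3 each).

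With the replicate number as a block in the edgeR test, again 0 of the 10 genes passed (0.0% of all genes), and the smallest adjusted p among them was 0.224, for rbp2a at a log2 fold change of -0.76 ± 0.13 (SE). Unadjusted, rbp2a, rbp7a, crabp1a and crabp2b were under 0.05 with the block, as were 14.5% of all genes. On the CPM scale the direction was the same in all 3 pairs for 3 of the 10 genes (rbp2a and crabp1a lower, crabp2b higher), where 37.8% of all genes had 1 direction throughout. In no member did the 3 GO libraries lie apart from the 3 control libraries, while 7.76% of all genes had groups that did not overlap.

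Genes that take up, store, make or break down retinoids changed in both directions in replicates 1 and 2, and none of those tested passed over 6 libraries or with the block. In replicates 1 and 2, 12.9% of all tested genes rose and 12.0% fell, and a count near these shares is no result about a gene group. Of 12 tested genes of uptake and storage 2 rose and 1 fell. The retinol-binding protein receptor gene stra6 had 48.1, 43.6 and 61.2 CPM in the GO libraries, against 32.5, 34.8 and 56.5 CPM in control (log2 fold change in replicates 1 and 2 0.44, adjusted p = 5.65e-06, edgeR). Of the lecithin retinol acyltransferase genes, which store retinol as its ester, lratb.2 rose by 0.66 (adjusted p = 0.00104, edgeR) and lrata had a log2 fold change of -0.54 (adjusted p = 0.00163, edgeR).

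Of 18 tested genes of retinoic acid synthesis and breakdown 2 rose and 5 fell in replicates 1 and 2. The alcohol dehydrogenase genes adh8b and adh5 and the retinol dehydrogenase gene rdh1 had log2 fold changes of -0.65, -0.31 and -2.27 (adjusted p = 3.85e-08, 9.67e-06 and 0.00816, edgeR). The rdh1 value rests on 0.184 and 0.314 CPM in GO, against 1.27 and 1.26 CPM in control. The retinoic acid hydroxylase gene cyp26b1, which clears retinoic acid, rose to 40.4 and 41.9 CPM with GO, against 32.3 and 29.9 CPM in control (0.41, adjusted p = 6e-05, edgeR). Its relative cyp26a1, a classical retinoic acid target, had 14.4 and 13.1 CPM with GO and 14.3 and 14.6 CPM in control, and did not pass (adjusted p = 0.746, edgeR).

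Among 10 retinoic acid receptor and retinoid X receptor genes, rarga and rargb rose in replicates 1 and 2 and none fell. Of all tested genes 12.9% rose and 12.0% fell there. For rarga the values were 57.2, 62.2 and 62.5 CPM in the GO libraries, against 44.1, 45.8 and 66.5 CPM in control. For rargb they were 0.276 and 1.73 CPM with GO, against 0 and 0.474 CPM in control. These rest on few counts, 3 and 22 with GO against 0 and 6 in control, where a count of 0 allows 3 counts (0.231 to 0.308 CPM). In replicate 3 rargb was lower with GO, at 2.74 CPM against 3.39 CPM in control. Of 14 tested visual cycle genes, which renew the light-sensing retinal of the eye, 1 rose and 3 fell, beside 12.9% and 12.0% of all tested genes. The retinoid isomerase gene rpe65a rose to 378 and 365 CPM with GO, against 285 and 293 CPM in control (adjusted p = 2.01e-23, edgeR). Its replicate 3 pair went the other way, at 190 CPM in GO against 211 CPM in control. The extracellular retinoid carrier gene of the retina, rbp3 (listed as irbp), had 184 and 186 CPM with GO against 218 and 210 CPM in control, and rdh8b and rdh8a had log2 fold changes of -0.50 and -0.33 (adjusted p = 3.12e-06, 0.0033 and 0.0035, edgeR). In replicate 3 rbp3 was higher with GO, at 304 CPM against 208 CPM in control. Of 14 tested retina and pigment epithelium markers, 3 rose in replicates 1 and 2 (rpe65a itself and the pigment genes pmela and dct, at log2 fold changes of 0.31 and 0.33) and 7 fell (such as the opsin gene opn1sw1 and the cone transducin gene gnat2, at -0.36 and -0.56). Their part in the values of the visual cycle genes was not tested.

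The fatty acid-binding proteins belong to the same structural family as the cellular retinoid-binding proteins. In replicates 1 and 2, 12.0% of all tested genes fell and 12.9% rose. Of 11 tested fatty acid-binding protein genes 5 fell and 0 rose there, with a median log2 fold change of -0.30. The difference between that count and the 4 of 10 retinoid-binding protein genes was not tested.

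Genes with the most similar profile were found for the 5 called members as the smallest root mean square distance between log2 CPM deviations over the 6 libraries, as a description. Nearest to rbp4 were tmbim4, fam213b and the selenoprotein P gene sepp1a, at distances of 0.05, 0.07 and 0.09. The profile of sepp1a was 326, 323 and 1023 CPM in GO, against 428, 415 and 923 CPM in control, with the same crossing as rbp4. Nearest to rbp2a were the liver-type pyruvate kinase gene pklr (0.15), dpydb (0.21) and the anion exchanger gene slc26a6 (0.23). For rbp7a the nearest were the keratin gene krt17 (0.31), anxa1c (0.38) and pvalb8 (0.47). Here krt17 had 107, 113 and 286 CPM in GO, against 322, 339 and 276 CPM in control. The nearest of crabp1a were tp53inp2, ier5l and tal1 (0.05 to 0.06), and of crabp2b ap1b1, prickle2b and aclya (0.03 to 0.04). Most profiles are shaped by replicate 3, which these genes share with many others.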

How the data were processed

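The 6 deposited tables, 1 for each library, held 43106 rows under gene IDs and symbols. The expected counts as deposited are estimates and in places not whole, judging by the values. TPM and FPKM were computed by the authors, per the file headers. Per the submitters' processing notes, Bowtie2 2.3.2 and GRCz11 were used; for the counting program and its strand setting, the answer is not given in the sources used here. Rows were summed by gene ID (5932 IDs had more than 1 row), counts were rounded, and genes with a mean FPKM of at least 1 were tested with edgeR 4.0.16 (TMM, quasi-likelihood test, group as the only term, threshold 0.05, two-sided). The tests were run on all libraries, on replicates 1 and 2, and with an interaction term for replicate 3. Log2 CPM used a prior count of 2. Alternatives used DESeq2 1.42.0, limma 3.58.1, other filters, scalings and rows, a replicate block and leaving out each library. The test was also run on simulated counts, and no result above rests on that. Their spread was taken from the real libraries. Over 6 libraries the simulated counts had no shift of replicate 3, so they cannot show how that test behaves under such a shift.

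Every member is named. Of each retinoid list, up to 4 genes with the smallest p among those called in replicates 1 and 2 are named, and 3 nearest profiles per called member among genes of at least 10 CPM. The genes ttr, fabp10a, fabp2 and cyp26a1 are named beside them as markers or targets, with values that had been seen. The members, lists and tests were chosen with earlier results of these data known.

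Deviations from group means correlated at 0.733, 0.745 and 0.866 in same-numbered pairs, each above 0.1, so same-numbered libraries were treated as pairs. Replicates 1 and 2 also correlated across numbers (0.724 and 0.741). With replicate 3 apart in both groups, these values cannot tell which libraries of replicates 1 and 2 belong together. Replicates 1 and 2 differed by more than sampling noise (chi-square per degree of freedom 1.56 in GO and 1.62 in control) and were counted separately. Intervals of depth, such as the 3 counts that a count of 0 allows, cover counting error only.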

Additional observations from a re-analysis of the deposited data

Results flagged for a closer look

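For rbp4 and rbp7a the difference between GO and control was not the same in replicate 3 as in replicates 1 and 2, by the interaction test. Of all tested genes 14.2% passed this test. For rbp4 the log2 effect was 0.26 in replicate 3 and -0.48 in replicates 1 and 2, a difference of 0.74 (adjusted p = 2.17e-36, edgeR interaction term, with DESeq2 3.36e-24). For rbp7a it was 0.23 in replicate 3 and -2.09 in replicates 1 and 2, a difference of 2.33 (adjusted p = 1.76e-07, edgeR interaction term, with DESeq2 0.0119). The GO library was the higher one in replicate 3 and the lower one in both other pairs for both genes. Replicate 3 has 1 library a group, so its own spread is assumed to be that of replicates 1 and 2, which may be technical. This holds for edgeR and DESeq2 alike. The split was chosen knowing that replicate 3 stood apart, and what set it apart was not tested.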

How the results depend on the processing

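Over 6 libraries the call of 0 of the 10 genes held in all alternatives run, and the count over all genes was 0 in each except DESeq2, which called 10. The replicate block gave 0 genes over 6 libraries and 4892 in replicates 1 and 2, against 4810 without it, and changed no member's call. In replicates 1 and 2 the count over all genes was 2047 with DESeq2, 2468 with limma on log2(FPKM + 1), 2273 with a pseudocount of 0.1, and 3041 to 3855 without 1 library. The calls of rbp4, rbp2a, rbp7a and crabp1a held in every alternative run, while that of crabp2b ended with DESeq2, with limma (adjusted p = 0.0665 and 0.0682) and without any 1 library. Leaving out control replicate 1 added a call of rbp5, from a fit with 1 control library. The difference of effects was called for 761 genes with DESeq2, against 2746. At 4-fold in place of 2-fold, replicate 3 stood apart in 772 genes, against 2373.

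Signs of values that had not passed turned in places, and the cause was not tested. Without 1 library, log2 fold changes over 6 libraries ran from -0.83 to 0.27 for rbp4, from -2.77 to 1.22 for rbp2a, from -3.95 to 3.32 for rbp2b, from -0.36 to 0.038 for rbp5, from -0.24 to 0.55 for rbp7b, from -0.18 to 0.15 for crabp1b and from -0.19 to 0.10 for crabp2a. In replicates 1 and 2 they ran from -0.058 to 0.027 for crabp2a and from -0.68 to 0.13 for rbp7b. With limma crabp2a was at 0.033 with a pseudocount of 1 and at 0.034 with 0.1, and with no filter rbp2b over 6 libraries was at 0.0. Low counts limit rbp2b and rbp7b, with 14 to 31 counts in replicates 1 and 2.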

Other observations

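The rbp4-like gene rbp4l (335651), which is not among the 10, had 148 and 138 CPM in GO replicates 1 and 2, against 164 and 160.5 CPM in control. Per length it was lower in replicate 3, where rbp4 was higher, at 205 TPM in GO replicate 3 against 317 and 296 TPM in GO replicates 1 and 2. In control it was at 200.4 TPM in replicate 3 against 305 and 297 TPM in replicates 1 and 2. Between GO and control it fell in replicates 1 and 2 (log2 fold change -0.19, adjusted p = 0.000327, edgeR).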
